A study of Mus musculus with 4 samples.

Results

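A set of 10 genes from the platelet-derived growth factor, fibroblast growth factor, hepatocyte growth factor, AXL and insulin-like growth factor systems was followed through single-cell profiles of mouse sarcomas. They were 6 receptor tyrosine kinases (Pdgfra, Pdgfrb, Fgfr1, Met, Axl and Igf1r) and 4 ligands (Pdgfa, Pdgfb, Hgf and Igf1). All 10 symbols were rows of both deposited tables, among 16121 genes present in both and 18220 present in either. For each gene the mean level was computed in every mouse, in the malignant cells and in each cell type that the authors named among the non-malignant cells.

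Receptor tyrosine kinases span the plasma membrane, pair up when an extracellular ligand binds, and phosphorylate each other and their adaptors, which starts MAPK and PI3K signalling. The ligand is often made by one cell type and read by another, as in vessels, where endothelial PDGF-B recruits pericytes that carry PDGFR-beta. PDGFRA marks fibroblasts and mesenchymal progenitors. FGFR1 is a mesenchymal FGF receptor. MET is the receptor for HGF, AXL is the TAM-family receptor for GAS6, and IGF1R is the receptor for the IGFs. In soft tissue sarcomas, tumors of mesenchymal origin, several of these receptors have been studied as drug targets.

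On mm10 (GENCODE M21 annotation) each of the 10 is a protein-coding gene, and the coordinates span the whole gene, exons and introns. Of the PDGF genes, Pdgfra lies at chr5:75152292-75198215 on the plus strand, Pdgfrb at chr18:61045150-61085061 (plus), Pdgfa at chr5:138976014-138997370 (minus) and Pdgfb at chr15:79995874-80014977 (minus). Fgfr1 lies at chr8:25513654-25575718 (plus), Met at chr6:17463800-17573980 (plus), Hgf at chr5:16553495-16620152 (plus) and Axl at chr7:25757273-25788705 (minus). Igf1r lies at chr7:67952827-68233668 (plus) and Igf1 at chr10:87858265-87937042 (plus).

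The tumors were allografts of a hind limb sarcoma carrying Trp53flox/flox, in which loss of Trp53 is switched on by recombination, on the 129/SvJae strain. Mice received intraperitoneal PBS (vehicle, 2 mice) or digoxin (2 mice), a cardiac glycoside that blocks the sodium-potassium ATPase, at 2 mg/kg in DMSO diluted with PBS every 24 h, and tumors were taken after the 4th dose. The age of the mice was not given in the sources used here. The cells were profiled with 10x 3' v3 chemistry after a 45 min digestion with collagenase IV, dispase and trypsin. How malignant cells were separated from the others was not given either. Each mouse is 1 replicate, and whether the 4 tumors derive from 1 donor tumor was not stated, so the spread between mice is that between these 4 allografts.

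The tables held 18963 malignant and 12648 non-malignant cells, with a median depth per mouse of 46799 to 57658 UMIs (unique transcripts counted) in malignant cells and 15837 to 16671 in the others. There were 8 populations that had at least 20 cells in every mouse, which were ordered: malignant cells and the types named Macrophage, T cell, NK, Epithelial, Osteoclasts, Fibroblast and Microglia. A level is the mean CPM (counts per 1000000 UMIs) over the cells of a population, and 4 values in a row are vehicle mice 1 and 2 and then digoxin mice 1 and 2. The floxed gene Trp53 was at 7.71, 7.23, 6.56 and 6.62 CPM in malignant cells and at 75.5, 63.8, 70.9 and 69.8 in the others. Defining markers were high under most names, with Dcn at 3621 CPM in fibroblasts, C1qa at 3782 in macrophages, Acp5 at 11381 in osteoclasts, Cd3e at 432 in T cells and Ncr1 at 794 in NK cells, and 2 names went against their markers. In the type named Epithelial, Epcam was at 0.122 CPM, while the endothelial gene Cdh5 was at 888 and the pericyte gene Rgs5 at 583. In the type named Microglia, Tmem119 was at 1.43 CPM and P2ry12 at 22.7, while Siglech and Ccr9, known from plasmacytoid dendritic cells, were at 2449 and 591. Those names are kept below as the deposited labels. The host cells of vehicle mouse 2 stood apart: their Xist was at 6.09 CPM against 722 to 817 in the other 3 mice, and their Y-linked Ddx3y at 86.0 CPM against 1.72 to 2.14. Vehicle mouse 2 also had 152 osteoclasts against 28 to 47 elsewhere, and 31 fibroblasts against 45 to 78. Libraries shared 14 to 25 cell barcodes a pair, and no cell stood in both tables. CPM from 3' tags orders cell types within a gene, not 1 gene against another.

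**Figure D1:**
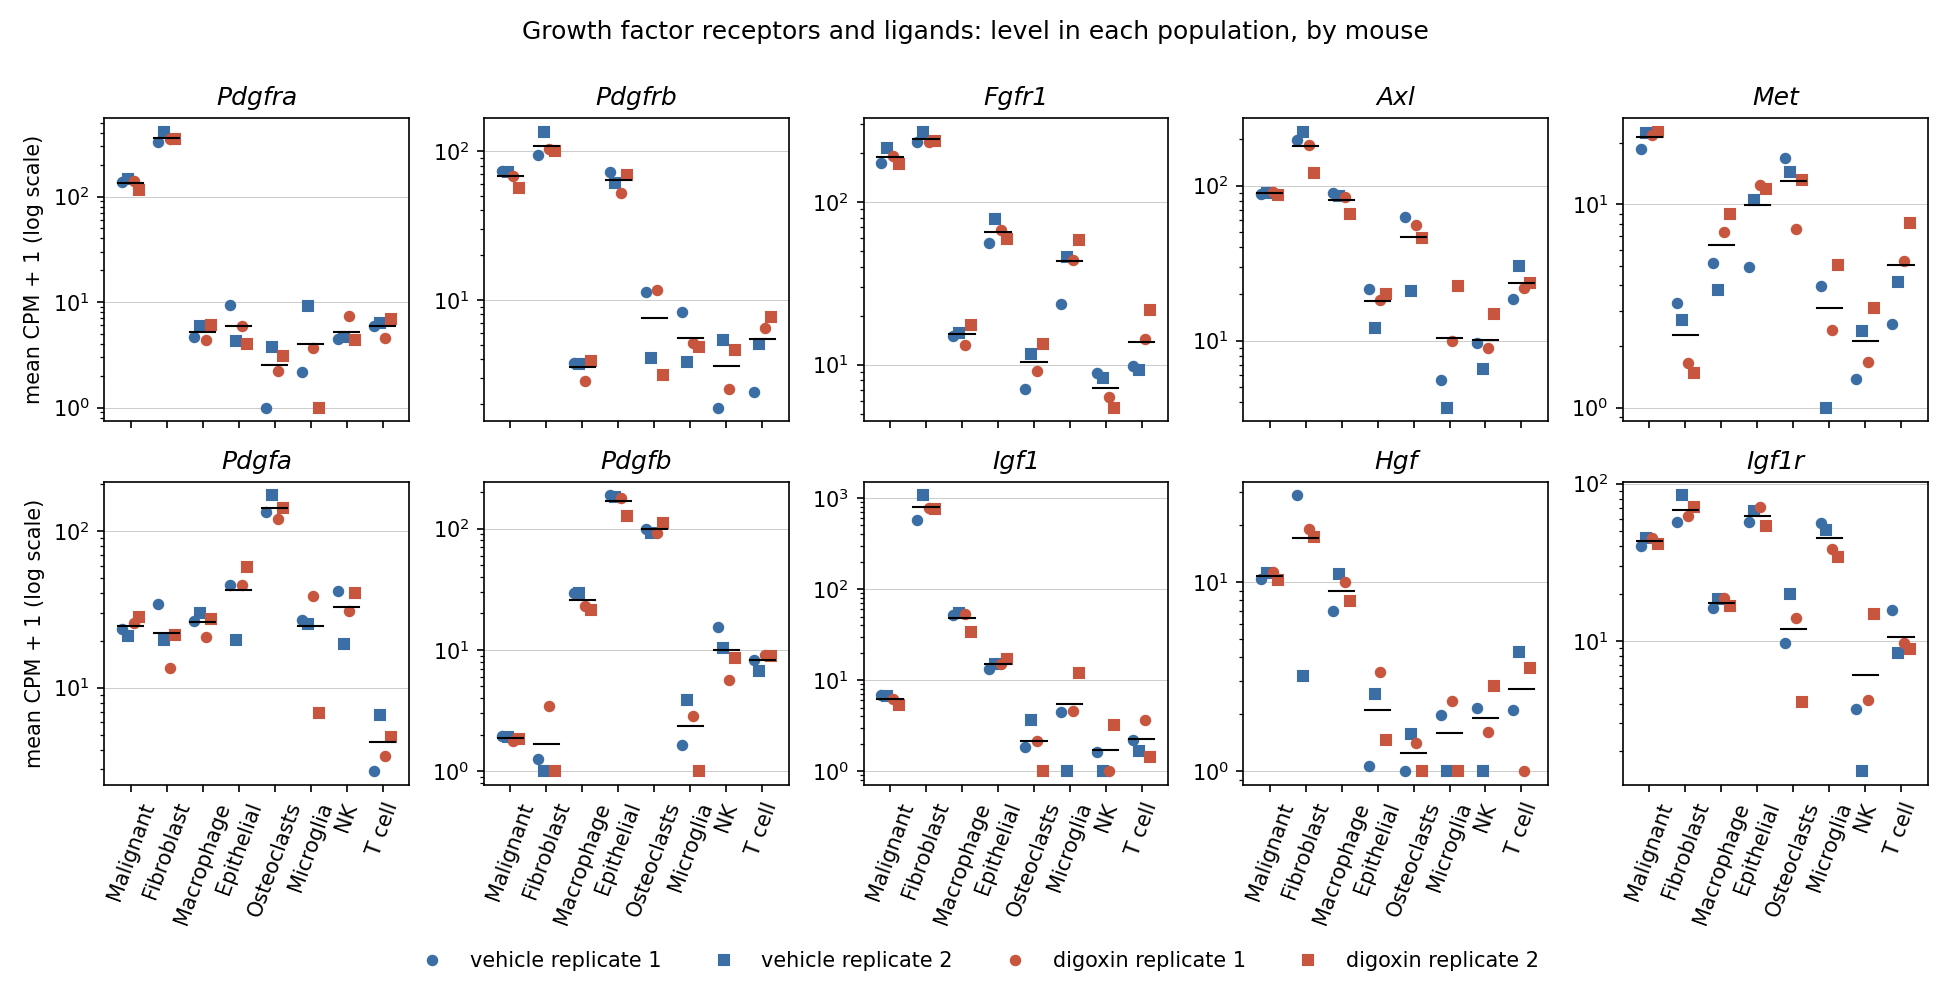
Mean CPM (log scale) of each of the 10 genes in the 8 ordered populations; each point is 1 mouse, vehicle or digoxin. Pdgfra, Pdgfrb, Fgfr1, Axl and Igf1 are highest in fibroblasts, Met in malignant cells, Pdgfb in the type named Epithelial and Pdgfa in osteoclasts.

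Among the ordered populations, both PDGF receptors had their highest means in fibroblasts and then malignant cells, and both PDGF ligands were highest elsewhere. Pdgfrb was also present in the type named Epithelial, and was higher than in fibroblasts in a few cells there with pericyte markers, described below. Pdgfra, which binds PDGF-A and PDGF-B, was at 327, 411, 351 and 349 CPM in fibroblasts (mean 360 ± 36.1, SD, n = 4) and at 137, 145, 139 and 115 CPM in malignant cells (134 ± 13.3, n = 4). The 2 ranges did not overlap, and the fibroblast level was 2.68 times the malignant one (2.39 to 3.04 across mice). The other 6 types all had mouse values between 0 and 8.37 CPM. Of these, osteoclasts (0 to 2.75 CPM) lay below T cells, NK cells, macrophages and the type named Epithelial without overlap, and the others overlapped.

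Pdgfrb, the PDGF-B receptor of pericytes and fibroblasts, was at 93.0, 134, 103 and 99.4 CPM in fibroblasts (107 ± 18.4, n = 4). Malignant cells had 73.1, 71.7, 67.4 and 55.6 CPM (67.0 ± 7.95), and the type named Epithelial had 71.4, 59.8, 51.1 and 68.5 CPM (62.7 ± 9.19). Fibroblasts were above both in every mouse, at 1.60 times the malignant level (1.27 to 1.87), and the latter pair overlapped. In macrophages Pdgfrb was at 2.77, 2.69, 1.84 and 2.87 CPM.

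Pdgfb, which encodes the PDGF-B chain, was at 187, 183, 177 and 125 CPM in the type named Epithelial (168 ± 28.7, n = 4), above every other population. Osteoclasts came next with 98.2, 91.1, 90.7 and 111 CPM (97.7 ± 9.44), then macrophages with 28.5, 28.7, 21.9 and 20.5 CPM (24.9 ± 4.29). These 3 did not overlap. Pdgfb was close to absent from the 2 ordered populations with the highest receptor means. Malignant cells had 0.945, 0.905, 0.762 and 0.857 CPM, and fibroblasts had 0.256, 0, 2.48 and 0 CPM. Without the malignant cells marked as doublets by Scrublet, a caller of droplets with 2 cells, the malignant values were 0.427, 0.396, 0.377 and 0.488 CPM (0.422 ± 0.0486, n = 4). The Epithelial-type level was 194 times the malignant one (146 to 232 across mice), and the macrophage level was 28.7 times it (24.0 to 31.7).

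Pdgfa, the PDGF-A chain, was highest in a different population. Osteoclasts held 132, 168, 118 and 140 CPM (140 ± 21.3, n = 4), which was 5.85 times the malignant level (4.71 to 8.24 across mice) and lay above all other ordered populations. The next 6 populations overlapped and had means between 21.3 CPM in fibroblasts and 41.4 CPM in the type named Epithelial. Within that span, malignant cells were at 22.7, 20.4, 25.0 and 27.3 CPM (23.9 ± 2.96) and macrophages at 25.8, 28.8, 20.04 and 26.3 CPM (25.2 ± 3.71). T cells were lowest at 1.92, 5.64, 2.68 and 3.81 CPM. Malignant cells thus held transcripts of Pdgfa and of Pdgfra together, and few of Pdgfb. Of the remaining ligands, Pdgfc averaged 21.1 CPM in fibroblasts, 15.5 in malignant cells and 13.2 in macrophages, and Pdgfd averaged 18.7 CPM in the type named Epithelial and 8.84 in fibroblasts.

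The type named Epithelial carried Pdgfb and Pdgfrb at once, so its 347 cells were divided by how many of 6 endothelial and 6 pericyte markers had a UMI, with at least 3 needed. None of these markers is one of the 10 genes, and the division was chosen after the levels above were seen. In the 280 cells that reached 3 endothelial but not 3 pericyte markers, Pdgfb averaged 187 CPM (148 to 204 across mice) and Pdgfrb 2.98 CPM (1.20 to 4.68). In the 24 cells that reached only the pericyte markers the order was the opposite, with Pdgfrb at 676 CPM (574 to 836) and Pdgfb at 5.74 CPM (0 to 23.0). The endothelial-marker cells held 80.4% of the type's Pdgfb UMIs and 5.35% of its Pdgfrb UMIs, and the pericyte-marker cells held 48.7% of the Pdgfrb UMIs and 0.356% of the Pdgfb UMIs.

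Pericyte-marker cells also had Pdgfa at 322 CPM (169 to 436), above the osteoclast mean of 140 CPM. Endothelial-marker cells had 14.6 CPM (7.29 to 20.8). Axl was at 141 CPM (53.2 to 240) in pericyte-marker cells against 5.81 in endothelial-marker cells. Fgfr1 had the reverse order, at 69.4 CPM in endothelial-marker cells and 11.7 in pericyte-marker cells. Another 29 cells reached 3 markers of both lists and held Pdgfrb at 149 CPM and Pdgfb at 159 CPM. Their median of 44646 UMIs compared with 19464 in endothelial-marker and 12810.5 in pericyte-marker cells, and Scrublet marked 1, 13 and 0 of the 3 sets. Whether these 29 are pairs of cells was not tested further. The remaining 14 cells (2, 2, 4 and 6 by mouse, median 9858.5 UMIs) reached 3 markers of neither list. With 5 to 8 pericyte-marker cells a mouse, their levels rest on 246 Pdgfrb UMIs in all.

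**Figure D2:**
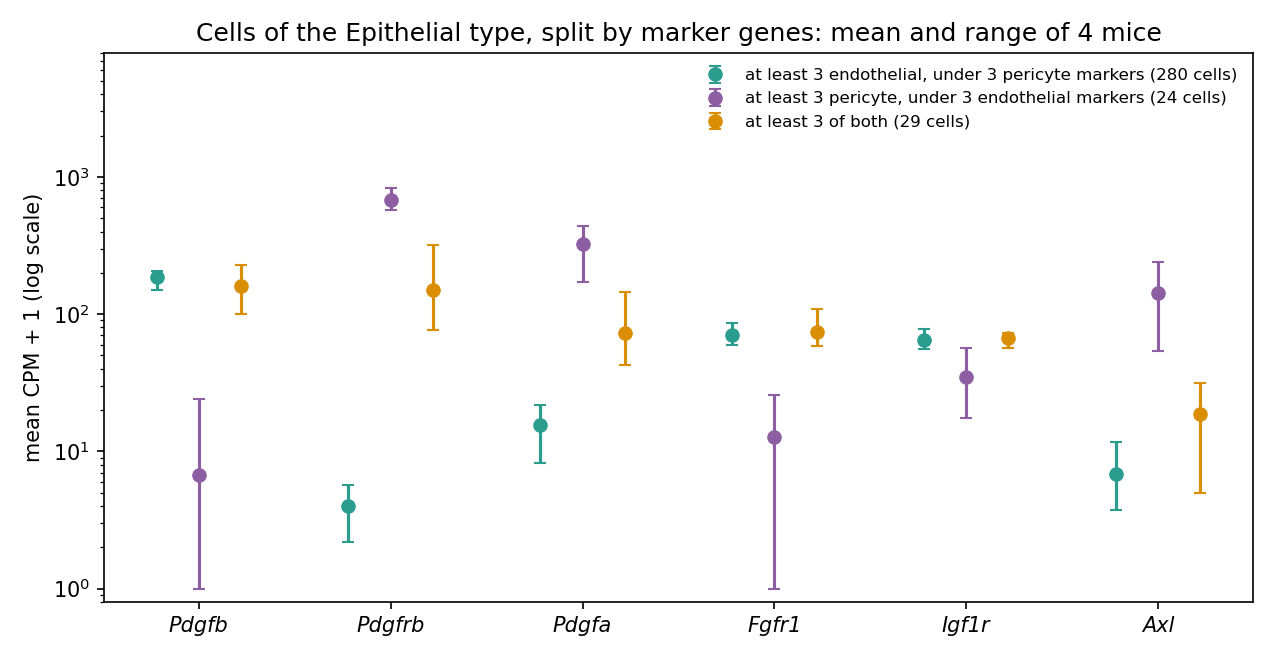
Mean CPM + 1 (log scale) of Pdgfb, Pdgfrb, Pdgfa, Fgfr1, Igf1r and Axl in sets of cells of the type named Epithelial. The sets are by endothelial and pericyte marker counts, with 1 set of 29 cells that had at least 3 of both. Points are means of 4 mice and bars their range. Pdgfb is high in the 280 endothelial-marker cells and Pdgfrb in the 24 pericyte-marker cells.

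Fgfr1 had its highest CPM in fibroblasts and malignant cells. Fibroblasts had 231, 269, 232 and 234 CPM (242 ± 18.6, n = 4) and malignant cells 173, 214, 190 and 170 CPM (187 ± 20.1). Fibroblasts were higher in each mouse, by 1.29 times (1.22 to 1.37). The type named Epithelial followed at 64.1 ± 10.1 CPM and overlapped with the type named Microglia at 22.7, 44.9, 43.2 and 57.4 CPM, while macrophages were at 14.4 CPM. Per cell and unscaled, the order of the first pair turned: malignant cells held 11.1 Fgfr1 UMIs a cell and fibroblasts 7.29, at fibroblast median depths of 18866 to 36748.5 UMIs. Axl (5.94 against 5.62), Igf1r (2.48 against 1.98) and Hgf (0.491 against 0.425 UMIs a cell) also had the higher mean in malignant cells, but for these 3 the values of the mice overlapped (for Igf1r only at 2.28 to 2.69 against 1.83 to 2.29), whereas those for Fgfr1 did not. Among ligands, Fgf7, a fibroblast-type FGF for epithelial receptors, averaged 76.0 CPM in fibroblasts and 39.4 in malignant cells. Fgf2, the broad-acting FGF, averaged 21.4 CPM in fibroblasts and 8.67 in malignant cells, and Fgf10 averaged 9.60 and Fgf1 5.32 CPM in fibroblasts.

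Among the ordered populations and by CPM, Met was the single member of the 10 that was highest in malignant cells. They had 17.8, 21.6, 21.0 and 21.9 CPM (20.6 ± 1.86, n = 4), above every other ordered population. Osteoclasts had 16.0, 13.5, 6.58 and 12.2 CPM, so that the malignant level was 1.70 times theirs (1.11 to 3.19). Macrophages had 4.14, 2.80, 6.31 and 7.99 CPM and fibroblasts 2.28, 1.71, 0.655 and 0.477 CPM. Dendritic cells, which were not ordered, had Met at 90.6% of the malignant level (15.1 to 134 in 3 mice, 12 UMIs). Its ligand Hgf was highest in 3 ordered populations, which overlapped. Fibroblasts had 27.6, 2.19, 18.0 and 16.2 CPM (16.0 ± 10.5), malignant cells 9.38, 10.2, 10.3 and 9.29 CPM (9.78 ± 0.527), and macrophages 5.98, 10.1, 8.94 and 6.90 CPM (7.97 ± 1.87). Fibroblasts were above malignant cells in 3 of 4 mice, and the low fibroblast value came from the 31 fibroblasts of vehicle mouse 2. All other ordered populations averaged under 2 CPM of Hgf. Malignant cells therefore held transcripts of both Hgf and Met, with a UMI of Met in 54.0% and of Hgf in 28.2% of cells on average. In T cells, which had a median depth of 7244 to 8231.5 UMIs, the shares were 4.93% and 1.70%. With every cell thinned to 3000 UMIs, the shares were 5.82% and 2.76% in malignant cells and 1.21% and 0.508% in T cells. T cells are not a level without Met: their Met was at 20.6% of the malignant level (8.83 to 32.7 in 3 mice, 24 UMIs), above the share of Y-linked tumor transcripts described below, 4.98%, in each of those mice.

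Axl was shared by fibroblasts, malignant cells and macrophages. Fibroblasts had 197, 222, 182 and 119 CPM (180 ± 43.9, n = 4), 2.04 times the malignant level (1.39 to 2.49 across mice). Malignant cells had 87.5, 89.3, 90.7 and 86.0 CPM (88.4 ± 2.06) and macrophages 88.0, 84.9, 83.1 and 64.7 CPM (80.2 ± 10.5), which overlapped. Osteoclasts followed at 45.3 CPM, and T cells, NK cells and the types named Epithelial and Microglia averaged 9.01 to 22.6 CPM. The AXL ligand Gas6 was low in malignant cells, at 7.05 CPM, and averaged 238 CPM in macrophages (219 to 259) and 237 CPM in fibroblasts (151 to 454). Pros1, the TAM ligand protein S, averaged 158 CPM in fibroblasts, 74.4 in the type named Epithelial, 40.1 in macrophages and 28.7 in malignant cells. The related receptor Mertk, an efferocytosis receptor of macrophages, averaged 46.3 CPM in macrophages, and Tyro3 averaged 5.30 CPM in malignant cells.

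Igf1, the growth factor that acts through IGF1R, had its highest level per cell in fibroblasts. They had 572, 1067, 783 and 757 CPM (795 ± 204, n = 4), followed without overlap by macrophages at 50.3, 53.1, 52.2 and 33.1 CPM (47.2 ± 9.47) and the type named Epithelial at 12.3, 14.1, 14.0 and 16.3 CPM. Malignant cells had 5.86, 5.67, 5.24 and 4.33 CPM (5.28 ± 0.683), so that fibroblasts were 151 times higher (97.6 to 188) and macrophages 8.94 times higher (7.64 to 9.95). Its receptor Igf1r was spread more evenly. Fibroblasts had 55.9, 83.1, 61.3 and 69.5 CPM, the type named Epithelial 56.0, 65.6, 69.7 and 53.1 CPM, and malignant cells 39.3, 44.0, 44.0 and 40.2 CPM. With the type named Microglia at 33.0 to 55.5 CPM between them, the neighbours in this order overlapped, while fibroblasts and the type named Epithelial lay above malignant cells without overlap, and all 4 lay above macrophages at 16.6 ± 1.22 CPM.

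The other genes of the IGF axis differed in place as well. Igf2r, which clears IGF2, averaged 80.3 CPM in osteoclasts, 74.7 in fibroblasts and 49.4 in malignant cells. Of the IGF-binding proteins, Igfbp3 averaged 2151 CPM in the type named Epithelial. Igfbp7 averaged 6299 CPM there, 1817 in fibroblasts and 79.4 in malignant cells. Igfbp4 averaged 3103 CPM in fibroblasts, 497 in malignant cells and 302 in macrophages, and Igfbp5 averaged 618 CPM in fibroblasts. Igfbp6 averaged 907 CPM in malignant cells and 690 in fibroblasts, and Igfbp2 did not pass an average of 3.17 CPM in any ordered population. Igf2 and Igfbp1 had no row among the malignant or the non-malignant genes, so no level is given.

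Macrophages made up most non-malignant cells, and the authors divide them into M1, M2 and Highly proliferative M2. Igf1 was at 93.5, 74.7, 95.1 and 50.1 CPM in M2 and at 23.1, 19.3, 20.04 and 20.9 CPM in M1, a ratio of 3.76 (2.40 to 4.74 across mice). Pdgfb was 1.96 times higher in M2 than in M1 (1.59 to 2.32) and Pdgfa 2.18 times higher (1.94 to 2.65). Met had the opposite order, at 6.86, 4.25, 10.3 and 13.5 CPM in M1 and 1.66, 2.10, 2.41 and 3.62 CPM in M2, 3.56 times higher in M1 (2.02 to 4.26). Axl was also higher in M1 (109, 160, 94.2 and 79.8 CPM) than in M2 (65.3, 51.3, 72.1 and 50.1 CPM) in each mouse. Highly proliferative M2 did not have the Igf1 level of M2. In vehicle mouse 1 and the digoxin mice, its Igf1 averaged 440% of the malignant level, against 420% in M1 and 1521% in M2. Its Pdgfa averaged 149% of the malignant level, against 55.0% in M1 and 124% in M2. Since the sub-clusters were drawn from the same cells' expression, these orders are descriptions.

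Counted over all cells of a tumor sample, malignant cells were 59.5% of cells on average but held 83.8% of the UMIs of all genes together (81.1 to 87.0 across mice), which is the level to read each gene's share against. Malignant cells held 97.5% of Fgfr1 UMIs, 97.2% of Pdgfra, 96.8% of Pdgfrb, 96.2% of Met, 91.5% of Igf1r and 87.0% of Axl (means over 4 mice). The shares of Hgf, 84.6%, and Pdgfa, 83.1%, lay within the range over mice of the share of all UMIs, and the mean for Axl was at its upper end. Pdgfb and Igf1 lay far below it. Malignant cells held 12.8% of Pdgfb UMIs, macrophages 56.9%, the type named Epithelial 20.6% and osteoclasts 7.90%. For Igf1 the malignant share was 25.1%, the macrophage share 50.4% and the fibroblast share 23.2%. Macrophages were 33.2% of cells, the type named Epithelial 1.10%, osteoclasts 0.782% and fibroblasts 0.660%, and they held 13.1%, 0.679%, 0.474% and 0.484% of all UMIs. The shares are of captured cells, and the part of dissociation in them was not tested. Without the malignant cells marked as doublets, the malignant share of Pdgfb was 5.78% and that of Igf1 18.2%, and the other 8 shares moved by less than the spread between mice.

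**Figure D3:**
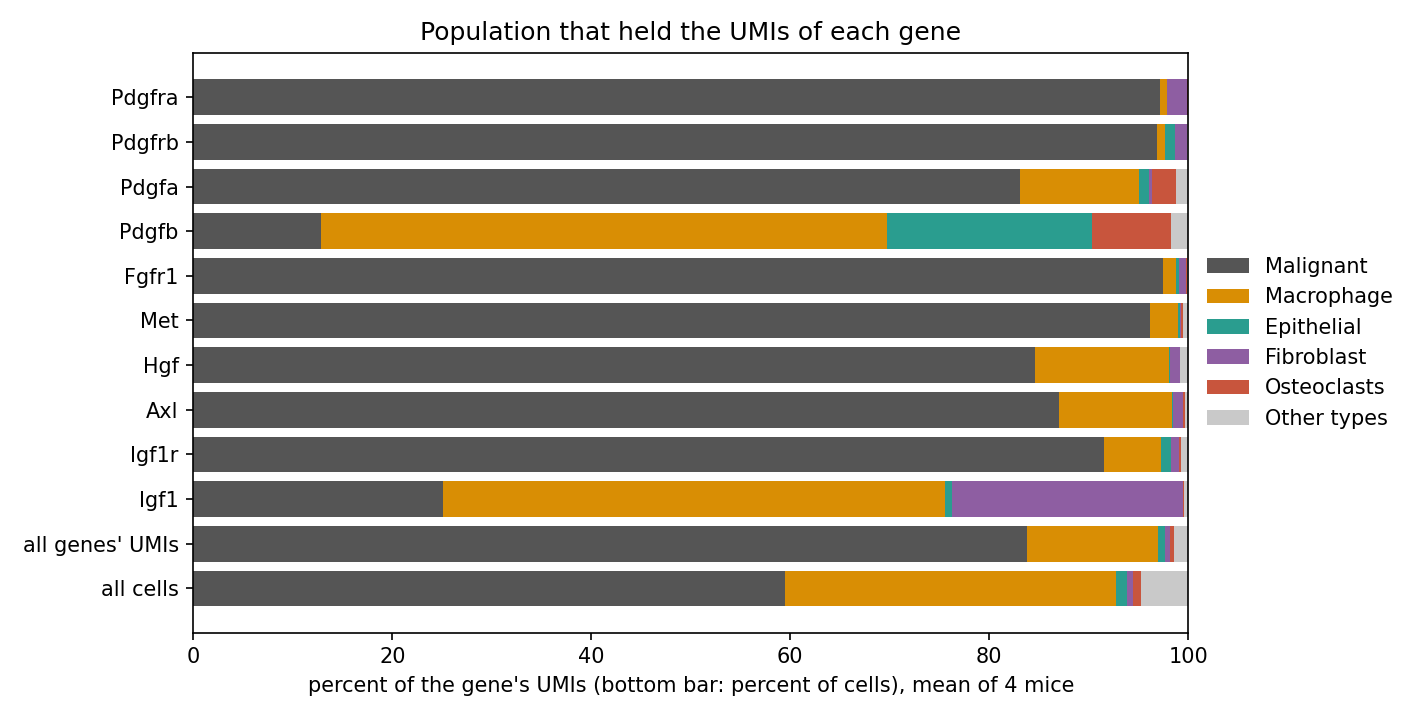
Share (%) of each gene's UMIs, of all genes' UMIs and of cells held by malignant cells, macrophages and other types, as the mean over 4 mice. Hgf (84.6%) and Pdgfa (83.1%) are near the malignant share of all UMIs (83.8%), Pdgfra, Pdgfrb, Fgfr1, Met and Igf1r are above it, and Pdgfb and Igf1 are mostly outside the malignant cells.

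Low levels were read against tumor RNA found with host cells. In 3 of the 4 mice the malignant cells carried Y-linked transcripts and the host cells carried Xist, so that Y-linked UMIs among host cells mark tumor RNA or tumor cells. This measure was added after the data were seen. In macrophages the Y-linked genes stood at 4.43% of their malignant level (3.31 to 5.76). Pdgfra and Pdgfrb in macrophages were at 3.15% and 3.89% of the malignant level and exceeded the Y-linked share in 0 of 3 mice. Within the sub-clusters, Pdgfrb exceeded it in 2 of 3 mice in M1 (3.80% against 3.76% on average) and both genes in 1 of 3 in Highly proliferative M2. The part of tumor RNA in these macrophage values was not tested further. Igf1r at 39.5%, Fgfr1 at 8.11%, Met at 30.0%, Hgf at 74.9%, Axl at 89.2% and Pdgfa at 96.6% exceeded it in 3 of 3 mice. In fibroblasts the Y-linked share was 2.17% (0.812 to 3.36), and Met, at 6.03% of its malignant level, exceeded it in 2 of 3 mice. In the other direction, Xist in malignant cells was at 2.09% of its non-malignant level (1.94 to 2.26). Pdgfb in malignant cells was at 3.37% (3.11 to 3.81) and Igf1 at 10.4% (9.69 to 10.8) of the non-malignant level, above Xist in 3 of 3 mice. Without marked doublets Xist was at 0.774%, Pdgfb at 1.72% and Igf1 at 8.71%, again above Xist in 3 of 3 mice. The Xist share was taken over all non-malignant cells together, among which the levels of Pdgfb and Igf1 differed widely by type. The part of host RNA in the malignant values of Pdgfb and Igf1 was not tested.

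**Figure D4:**
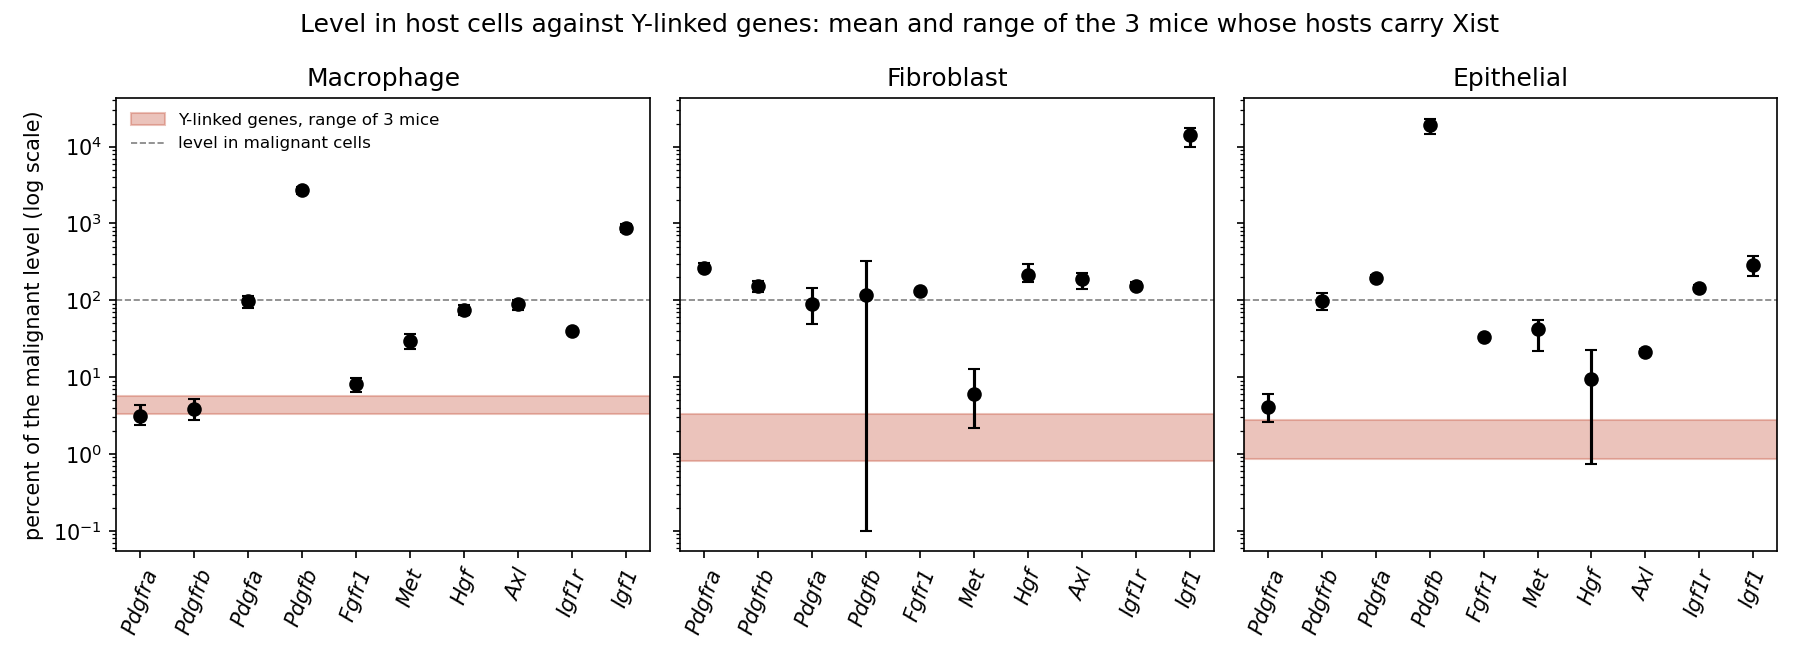
Level of each gene in host macrophages, fibroblasts and Epithelial-type cells as a percent of its level in malignant cells (log axis). Points are means of 3 mice and bars their range, with values of 0 drawn at 0.1. The Y-linked genes are the mark of tumor RNA. In macrophages Pdgfra and Pdgfrb lie at or under the Y-linked level and the other genes above it.

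Other transcripts whose log2 levels followed the members most closely over the 8 populations were listed from 9103 genes (9104 for Hgf) with at least 20 CPM somewhere. Pdgfra was most like Mrc2 (Pearson r = 1.00), Itgbl1 (1.00) and Dcn (1.00), Pdgfrb like Fah (1.00), Fkbp9 (0.99) and Arhgap35 (0.98), and Fgfr1 like Cacna2d1 (0.98), Zfpl1 and Pard3. Axl was most like Lrp1 (0.99), Mt1 and S1pr2, Igf1 like Col14a1 (0.96), Apoc1 and Slc38a10, and Hgf like Inhba (0.99), Slc7a2 and Cxcl1. Igf1r was most like Pkd1 (0.97), 2310022B05Rik and Filip1l, and Met like Trmt1 (0.94), Psmg3 and Vps72. For the ligands Pdgfb and Pdgfa the leading genes were Nol4l (0.97), Pigq and Gm26917, and Fbxw5 (0.90), Mut and C1d. With 8 populations from the same 4 libraries and so many genes compared, high values arise for many genes, and these are descriptions only.

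Digoxin was then compared with vehicle in each population with limma on log2(mean CPM + 1), over all genes that passed a filter on low counts and with Benjamini-Hochberg adjustment. These means over a cell type do not tell fewer expressing cells from less RNA per cell. The shares of cells with a UMI were not compared between the groups. None of the 10 genes passed an adjusted p of 0.05 in any of 9 populations (the 8, and all non-malignant cells together), and edgeR and DESeq2 on summed UMIs called none either. At an unadjusted p under 0.05, limma had 7 of the 65 member tests, against 4.46% of all tests in the 9 populations. These tests were not independent: macrophages were 10363 of the 12648 non-malignant cells, and Met and Pdgfb were counted in both populations. Over all genes tested limma called 0.467% of genes in the type named Epithelial, 0.0765% in NK cells, 0.0128% in osteoclasts and 0% in each of the other 6 populations, so at 2 mice a group these fits made few calls for any gene.

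In malignant cells 4 of the 10 genes had groups that did not overlap, against 29.3% of all genes tested. Pdgfa, given above by mouse, had both digoxin values above both vehicle values, with a log2 difference (digoxin minus vehicle) of 0.27 (SE 0.0951, limma adjusted p = 1.00). Pdgfrb had both digoxin values below both vehicle values, with -0.24 (SE 0.105). Igf1 was likewise lower in both digoxin mice with -0.23 (SE 0.124), and Pdgfb with -0.09 (SE 0.0659). Doublets were marked in 8.498% and 7.37% of vehicle and 5.49% and 5.56% of digoxin malignant cells, and summed macrophage markers in malignant cells were at 547 and 564 CPM in vehicle and 418 and 433 CPM in digoxin mice. Without the marked doublets the Pdgfb value was 0.02, of the opposite sign, and the Igf1 value was -0.13. Of 15 lists of cell type markers, 5 had lower sums in malignant cells of both digoxin mice and 4 had higher ones. Fibroblast markers were at 7634 and 7792 CPM in vehicle and 6318 and 5623 CPM in digoxin mice, endothelial markers at 5.92 and 6.96 against 9.87 and 27.8 CPM, and neutrophil markers at 11.5 and 11.7 against 31.6 and 19.5 CPM. The part of these markers in the values of the 10 genes was not tested. For Axl the 95% interval of the log2 difference was -0.17 to 0.17, for Igf1r -0.21 to 0.25 and for Hgf -0.26 to 0.27. The median over the 10 genes was -0.05 and that over all genes -0.01.

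In macrophages 3 of the 10 genes did not overlap between groups, near the 30.9% of all genes. Met was at 4.14 and 2.80 CPM in vehicle and 6.31 and 7.99 CPM in digoxin mice, a log2 difference of 0.88 (SE 0.207, 95% interval 0.38 to 1.37, limma unadjusted p = 0.00465, adjusted p = 1.00). Each of the 3 macrophage sub-clusters had both digoxin values of Met above both vehicle values: in Highly proliferative M2 these were 2.45 and 2.94 in vehicle and 3.89 and 4.85 CPM in digoxin mice. The sub-clusters are parts of these same macrophages and mice, so they add no independent support. No fit was run on them, and the share of all genes with such an order was not counted there. Pdgfb was lower in both digoxin mice, with -0.41 (SE 0.122, unadjusted p = 0.0129, limma adjusted p = 1.00), and Axl with -0.24 (SE 0.143). Axl was at 88.0 and 84.9 CPM in vehicle and 83.1 and 64.7 CPM in digoxin mice, with digoxin mouse 2 apart. M1 made up 45.3%, 29.0%, 47.6% and 42.5% of macrophages and M2 39.2%, 61.5%, 41.3% and 43.5%, with vehicle mouse 2 apart from the other 3. Summed neutrophil markers in macrophages were at 57.6 and 45.4 CPM in vehicle and 88.8 and 64.9 CPM in digoxin mice, and neutrophils themselves had Met at 4.78, 0, 8.38 and 18.0 CPM, from 8 UMIs. The part of either in the macrophage values was not tested. Over all non-malignant cells 4 of the 10 did not overlap, against 33.0% of all genes. These were Met with 0.63 (SE 0.165), Pdgfb with -0.43 (SE 0.125), Igf1 with -0.24 (SE 0.158) and Axl with -0.21 (SE 0.130), and limma's adjusted p was 0.9745 for each. Igf1 was at 55.5 and 55.0 CPM in vehicle and 54.1 and 40.0 CPM in digoxin mice, and Axl at 78.4 and 75.0 against 74.0 and 59.4 CPM. For both genes digoxin mouse 1 lay near the vehicle mice and digoxin mouse 2 apart.

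In fibroblasts 8 of the 10 genes passed the filter and 1 did not overlap, against 29.5% of all genes: Axl, at -0.50 (SE 0.255). Its values were 197 and 222 CPM in vehicle and 182 and 119 CPM in digoxin mice, with digoxin mouse 2 furthest from the vehicle mice. In the type named Epithelial 9 passed and 2 did not overlap, against 34.1% of all genes, namely Met at 0.76 (SE 0.473) and Pdgfb at -0.31 (SE 0.173). Met was at 3.93 and 9.55 CPM in vehicle and 11.5 and 11.0 CPM in digoxin mice, with vehicle mouse 1 apart. Pdgfb was at 187 and 183 against 177 and 125 CPM, with digoxin mouse 2 apart. Pdgfa had overlapping groups there, at 44.3 and 19.2 against 44.1 and 58.0 CPM, with 0.77 (SE 0.342, limma adjusted p = 0.860). Summed mast cell markers in that type were at 59.4 and 228 CPM in vehicle and 3901 and 3799 CPM in digoxin mice, and summed macrophage markers there at 373 and 759 against 924 and 1084 CPM. Summed macrophage markers in fibroblasts were at 395 and 128 against 628 and 572 CPM; their part in these values was not tested. In osteoclasts 7 passed and 1 did not overlap (Met, -0.65), against 37.4% of all genes. The type's own summed osteoclast markers were also lower in digoxin mice, at 20725 and 27601 against 17013 and 18458 CPM. In NK cells 4 passed and 2 did not overlap (Pdgfb, -0.87, and Fgfr1, -0.54), against 36.0%. Summed macrophage markers in NK cells were at 535 and 557 CPM in vehicle and 620 and 978 CPM in digoxin mice. In T cells 4 passed and 2 did not overlap (Fgfr1, 0.89, and Pdgfb, 0.27), against 33.3%. Without marked doublets the Pdgfb value in T cells was -0.02, of the opposite sign, and summed neutrophil markers there were at 6.50 and 18.1 against 39.1 and 127 CPM. In the type named Microglia 3 passed and 1 did not overlap (Igf1r, -0.56), against 32.9%. Of the 15 marker lists, the sums that were higher and lower in both digoxin mice numbered 7 and 0 in NK cells, 0 and 4 in osteoclasts, 2 and 2 in T cells and in macrophages, 4 and 1 in the type named Epithelial, 2 and 1 in fibroblasts and 1 and 0 in the type named Microglia. Their part in the values of the 10 genes was not tested.

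**Figure D5:**
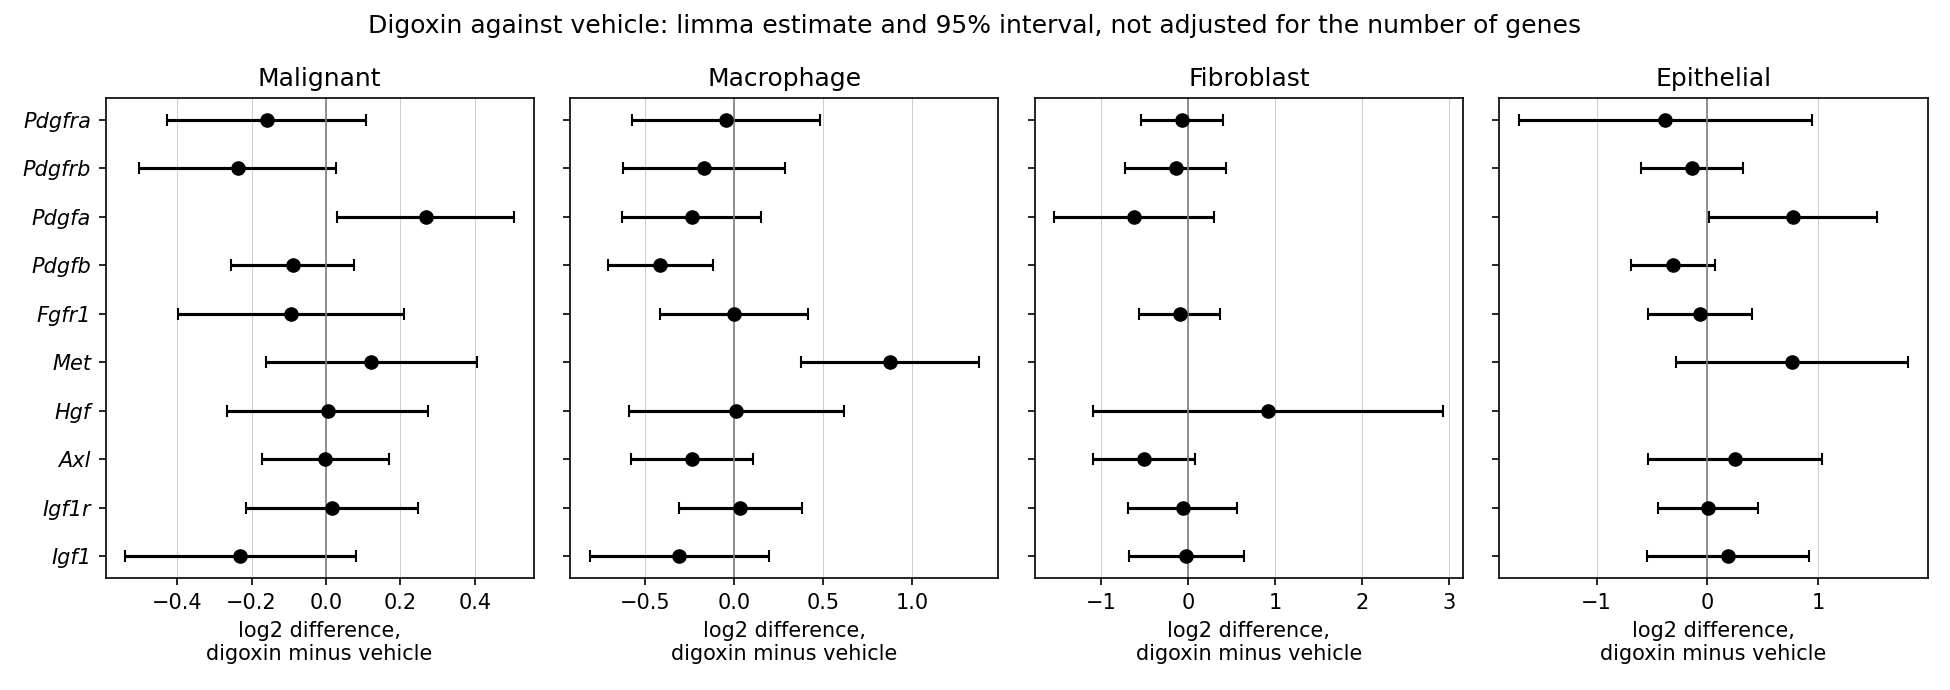
Log2 difference (digoxin minus vehicle, with its 95% interval from limma) of the tested members in malignant cells, macrophages, fibroblasts and the type named Epithelial; the panels have different x scales. Most intervals include 0, and none of the genes passed the adjusted threshold.

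Whether digoxin acted differently in non-malignant and malignant cells was fitted as an interaction term blocked by mouse, and limma called 0% of genes, with 576 of 14445 (3.99%) at an unadjusted p under 0.05, and edgeR called 0. By limma Met had 0.51 (SE 0.156, unadjusted p = 0.0187, limma adjusted p = 0.970), with the effect higher in non-malignant cells. edgeR on summed UMIs gave 0.26 for Met (unadjusted p = 0.188), and its largest positive value of the 10 was that of Igf1, 0.34 (unadjusted p = 0.0200, adjusted p = 0.890). By limma Pdgfa had -0.57 (SE 0.193, unadjusted p = 0.0275, limma adjusted p = 0.970), with the effect higher in malignant cells. With vehicle mouse 1 left out, 3 member results passed limma's threshold. They were Pdgfa in the type named Epithelial (1.35, adjusted p = 0.00139), Hgf in fibroblasts (2.50, adjusted p = 0.00675) and the interaction for Pdgfa (-0.83, adjusted p = 0.0365). In this setting limma called 3.35% of all genes in the type named Epithelial, 4.46% in fibroblasts and 1.48% in the interaction. With vehicle mouse 2 left out instead, the values were 0.19 (adjusted p = 0.966), -0.66 (adjusted p = 1.00) and -0.30 (adjusted p = 0.805), with the sign of Hgf turned. A fit with 1 mouse in an arm takes that mouse to vary like the others. With vehicle mouse 1 left out, the lone vehicle mouse is the one whose host cells stood apart, and that mouse and the treatment cannot be told apart.

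Of 74 other genes of these pathways (further ligands and receptors, IGF-binding proteins, adaptors and feedback genes) 71 were in the tables, and limma called 0 in each population. At an unadjusted p under 0.05 there were 9 of 69 in malignant cells (3.41% of all genes), 6 of 59 in macrophages (4.04%), 4 of 51 in fibroblasts (2.97%), 4 of 43 in the type named Epithelial (5.77%) and 6 of 65 in all non-malignant cells (3.90%). There were 3 of 30 in T cells (4.28%), 2 of 25 in NK cells (6.28%), 1 of 30 in osteoclasts (6.38%) and 2 of 16 in the type named Microglia (4.78%). In malignant cells 11 were higher and 12 lower in digoxin without overlap (33.3% of those tested, against 29.3% of all genes), and their median log2 difference was -0.03 against -0.01 for all genes. In macrophages 10 were higher and 7 lower (28.8% against 30.9%), in fibroblasts 8 and 9 (33.3% against 29.5%), and in the type named Epithelial 7 and 9 (37.2% against 34.1%), so these shares lay near those of all genes. DESeq2, which called 0.257% of genes in malignant cells, called 2 of them there. Igfbp7 was at 85.8 and 99.1 CPM in vehicle and 69.2 and 63.6 in digoxin mice (DESeq2 log2 -0.47, adjusted p = 0.00277; limma adjusted p = 1.00). Pdgfc was at 17.7 and 19.3 CPM in vehicle and 13.2 and 11.99 in digoxin mice (DESeq2 log2 -0.52, adjusted p = 0.00216; limma adjusted p = 1.00).

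By the smallest unadjusted p among genes of at least 20 CPM, 3 of these pathway genes are named per population. In malignant cells, beside Igfbp7, these were Kitl, the ligand of KIT, at 42.0 and 46.8 against 52.9 and 61.1 CPM (log2 0.35), and Igfbp3 at 35.8 and 33.2 against 42.3 and 45.4 CPM (0.34). In macrophages Errfi1, a feedback inhibitor of EGFR-family kinases, was at 51.7 and 37.7 against 61.7 and 71.9 CPM (0.58). Gab1, a docking adaptor of MET, was at 34.0 and 32.7 against 45.9 and 40.7 CPM (0.37), and Dusp6, a phosphatase of ERK, at 59.0 and 75.5 against 50.5 and 27.0 CPM (-0.84). These 3 were also named over all non-malignant cells, with 0.43 for Errfi1, 0.39 for Gab1 and -0.76 for Dusp6.

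In fibroblasts Pappa, a protease of IGF-binding proteins, was at 29.1 and 18.9 against 69.3 and 49.8 CPM (1.29). Hbegf, an EGFR ligand, was at 79.2 and 129 against 25.7 and 62.9 CPM (-1.31), and Errfi1 had 0.41. In the type named Epithelial, Hbegf had the other sign, at 72.5 and 62.0 against 89.8 and 119 CPM (0.62, limma adjusted p = 0.415). Igfbp3 there was at 1829 and 3728 against 1768 and 1281 CPM (-0.79) and Kitl had 0.30. In T cells Areg, another EGFR ligand, was at 159 and 119 against 65.2 and 17.3 CPM (-1.99, limma adjusted p = 0.872), Irs2 had 0.84 and Igf2r 0.73. Areg in T cells passed limma's threshold when vehicle mouse 1, vehicle mouse 2 or digoxin mouse 1 was left out, where limma called 2.22%, 0.929% and 0.0224% of all genes. In NK cells these were Cblb (0.40), Igfbp4 (0.70) and Igfbp6 (0.51), in osteoclasts Hbegf (1.23), Dusp6 (-0.40) and Cblb (0.38), and in the type named Microglia Areg (1.96), Shc1 (1.31) and Grb2 (0.29). With vehicle mouse 1 left out, limma called 4 of the pathway genes in the type named Epithelial (Hbegf, Igfbp3, Igfbp4 and Igfbp5), 6 in fibroblasts (Areg, Dusp5, Ereg, Gas6, Hbegf and Pappa), 2 in macrophages (Dusp5 and Hbegf, against 1.00% of all genes), 1 in the type named Microglia (Areg, 1.50%) and 1 in all non-malignant cells (Igfbp3, 0.464%). With vehicle mouse 2 left out it called Igfbp4 in fibroblasts (0.323% of all genes). Each of these fits leaves 1 mouse in an arm, a digoxin mouse where digoxin mouse 1 was left out and a vehicle mouse in the others.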

How the data were processed

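The authors' deposited tables hold natural log values, ln(1 + UMIs per 10000), for each cell, with each cell's total UMI count in the deposited cell tables. The submitters' processing notes name Cell Ranger 3.0.2, Seurat 3.0.2 and build mm10. From these the UMIs were recovered as whole numbers (100% within 0.01), and cell types were taken from the authors' annotation. The deposited UMI counts were turned into per-cell CPM, averaged per mouse and population, with at least 20 cells in every mouse, and no cell was removed in the main analysis. Digoxin was compared with vehicle (2 mice each) in R 4.3.3 with limma 3.58.1 (trend) on log2(CPM + 1) of genes kept by filterByExpr, with Benjamini-Hochberg adjustment at 0.05. edgeR 4.0.16 and DESeq2 1.42.0 on summed UMIs were alternatives. An exact permutation test of 2 against 2 mice cannot go below 0.333. Levels and their order are descriptions without a test. Doublets were marked with Scrublet in scanpy 1.11.5 (expected share 0.06). The limma fit alone was run on simulated counts, for malignant cells, macrophages and fibroblasts. Those were CPM of summed counts and not the mean per-cell CPM of the main fit. The other fits and measures were not simulated.

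The genes and lists were chosen with earlier results of these data known. The text names the 10 genes, listed partner genes, in each population the 3 other pathway genes of smallest unadjusted p with at least 20 CPM and any past the threshold in the limma comparison of all 4 mice without a block, and for each of the 10 the 3 most similar genes. Crossed pairing, unscaled UMIs per cell, the division of the type named Epithelial and the Y-linked and Xist measures were added after the data were seen. Part of the tumor genotype is not reported here.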

Additional observations from a re-analysis of the deposited data

How the results depend on the processing

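The number of genes called depended on the processing. Against limma's 48 genes called in the type named Epithelial, 7 in NK cells, 1 in osteoclasts and 0 elsewhere, edgeR called 0, 17 and 0. DESeq2 called 15 in the type named Epithelial, 1 in fibroblasts, 20 in macrophages, 44 in malignant cells, 1 in the type named Microglia, 30 in all non-malignant cells and 6 in osteoclasts. The Epithelial count was 18 with a pseudocount of 0.1, 6 with no filter on low values, 0 with CPM of summed UMIs (which also gave 0 in osteoclasts) and 26 without cells above 20% mitochondrial UMIs. Without marked doublets the counts were 27 (Epithelial), 4 (Microglia) and 0 (NK). With the replicate number as a block, limma called 85 in the type named Epithelial, 23 in NK cells, 2 in all non-malignant cells, 3 in osteoclasts and 57 in T cells, among them the pathway gene Areg in T cells. The numbers were not taken to pair the mice, since the correlation of same-numbered mice's deviations was -0.36 in malignant and 0.01 in non-malignant cells. The crossed pairing gave 189 (Epithelial), 2 (fibroblasts), 65 (macrophages), 40 (Microglia), 16 (NK) and 40 (osteoclasts). Among them were the pathway genes Igfbp3 in the type named Epithelial, Areg and Dusp6 in macrophages and Hbegf in osteoclasts. Leaving out 1 mouse in turn gave 12 to 344 in the type named Epithelial, 0 to 414 in fibroblasts, 0 to 138 in macrophages, 0 to 15 in malignant cells, 13 to 87 in the type named Microglia, 12 to 107 in NK cells, 0 to 69 in all non-malignant cells, 0 to 5 in osteoclasts, 0 to 198 in T cells and 0 to 214 for the interaction. Of the 10 genes these called 0 to 1 in the type named Epithelial, in fibroblasts and in the interaction. The count of the 10 genes that kept their highest population was 6 with unscaled UMIs per cell, where Fgfr1, Hgf, Axl and Igf1r became highest in malignant cells. Without marked doublets Pdgfb turned sign in malignant cells (log2 difference 0.0205) and in T cells (-0.0208). Met in malignant cells was at 25.1 CPM from summed UMIs. The cause of these changes was not tested. Of 44 differences of single members with overlapping groups and an unadjusted p of at least 0.05 (43 without marked doublets), 0 to 16 changed sign, by setting. Depth limits Pdgfb in fibroblasts (5 UMIs) and Hgf in osteoclasts (3 UMIs) and NK cells (7 UMIs).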

Other observations

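The 30 non-malignant cells that the authors named Unknown came from vehicle mouse 2 alone and had a median of 54783.5 UMIs. They held the muscle genes Myod1 at 110 CPM, Pax7 at 33.8 and Des at 130, with Krt18 at 474. Summed marker lists there were at 843 CPM for mast cells, 687 for fibroblasts, 502 for epithelial cells, 274 for plasmacytoid dendritic cells, 273 for skeletal muscle and 212 for macrophages. Hgf and Met were found together there at levels above those of the ordered populations: Met was at 58.4 CPM and Hgf at 43.7 CPM, and each had a UMI in 25 of 30 cells (83.3%, exact 95% interval 65.3 to 94.4, counting error only). Pdgfa was at 80.1 CPM, Fgfr1 at 76.5, Axl at 54.4 and Igf1r at 36.9. Pdgfra had a UMI in 0 of 30 cells. With 1 mouse there is no replicate of these values, and which cells these are was not settled.

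Neutrophils, too few to be ordered, had Igf1r at 94.2, 191, 94.2 and 188 CPM in 11, 5, 34 and 23 cells, above the fibroblast values in each mouse, from 113 UMIs in all.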
